A study of Mus musculus with 4 samples.

Results

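The amyloid precursor family of the mouse retina was examined in long-read counts of transcript isoforms in 6 cell classes. Its 3 genes, App, Aplp1 and Aplp2, were taken by name from a table of 16702 gene identifiers and had 7 of the 44325 listed isoforms. App had 3 isoforms and 3174 counts, Aplp1 had 1 isoform and 13452 counts, and Aplp2 had 3 isoforms and 6208 counts, which together made up 0.0153% of all counts. Retinas came from wild-type male C57BL6/J mice, an inbred strain, with no other allele and no treatment named beyond cell enrichment. There were 4 single-cell libraries, of which 2 had no enrichment (1 from postnatal day 40, the other without a stated age), 1 had CD73 enrichment (postnatal week 8) and 1 had CD90.2 enrichment (postnatal month 4). CD73 marks photoreceptors and CD90.2 marks neurons, and per the labels' protocols the CD73 step removed the marked cells while the CD90.2 step kept them. The table has 1 column each for amacrine cells, bipolar cells, cones, Müller glia, rods and ganglion cells, and names no library or animal, so each class is 1 sample without replicates and no test between classes was possible. The part of each library in a class column is not given. Differences between classes therefore cannot be told apart from differences in library, age or enrichment. Every interval below is an exact 95% interval that covers counting error only.

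App, Aplp1 and Aplp2 are single-pass membrane proteins with a large outer part and a short conserved tail. Secretases cut them at the membrane, and cutting of App by beta- and gamma-secretase releases the amyloid-beta peptide of Alzheimer's disease, a stretch that Aplp1 and Aplp2 lack. App and Aplp2, but not Aplp1, have a cassette exon that encodes a Kunitz domain, a fold that inhibits serine proteases. In brain, neurons are known for App without this domain, while glia and tissues outside the nervous system use the longer forms.

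Column totals ran from 3509890 counts in ganglion cells to 55437340 in rods, with 6133094 in Müller glia, 7307134 in cones, 29010038 in bipolar cells and 48248340 in amacrine cells. Of 36 marker genes of the 6 classes, 35 had their highest level in the matching column. The Müller glia column also held RNA of cells that have no column. In counts per 1000000 of a column (CPM), the 6 microglial markers summed to 1699 CPM there against 16.2 to 731 CPM elsewhere, and the 6 pigment epithelium markers to 8878 CPM (Ttr alone 8443 CPM, Best1 at 0) against 2.85 to 62.4 CPM. The 3 listed pericyte markers summed to 257 CPM (elsewhere 0 to 11.9 CPM), the 3 listed astrocyte markers to 111 CPM (0 to 4.07 CPM) and the 2 listed endothelial markers to 27.2 CPM (0 to 1.10 CPM), while the markers of Müller glia themselves summed to 7396 CPM. The part of these other cells in the values of the Müller glia column was not tested.

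The Kunitz exons are shown first because the listed isoforms of the 2 genes differ in them. Both are 168 bases (56 codons) long and lie within the coding sequence, as exon 7 of App in the GENCODE M21 transcript ENSMUST00000227723.1 (chr16:85043576-85043743 on GRCm38, minus strand) and exon 7 of Aplp2 in ENSMUST00000072634.14 (chr9:31167561-31167728, minus strand). Capitals mark the 114 of 168 positions (67.9%) that are the same in both when the exons are laid side by side without gaps.
App Kunitz exon: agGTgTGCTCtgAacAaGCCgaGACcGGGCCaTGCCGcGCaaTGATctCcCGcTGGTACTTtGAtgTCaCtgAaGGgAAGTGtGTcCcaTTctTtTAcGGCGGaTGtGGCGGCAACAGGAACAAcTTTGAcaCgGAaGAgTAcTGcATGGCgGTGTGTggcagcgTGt
Aplp2 Kunitz exon: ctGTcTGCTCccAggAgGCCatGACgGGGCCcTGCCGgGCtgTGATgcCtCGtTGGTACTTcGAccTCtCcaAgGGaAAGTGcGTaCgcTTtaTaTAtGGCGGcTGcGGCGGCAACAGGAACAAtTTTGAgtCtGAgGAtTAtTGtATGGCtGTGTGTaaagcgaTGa

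Further alternative exons separate the listed isoforms within each gene. App exon 2 (chr16:85120530-85120697, 168 bases, 56 codons) is coding and follows the exon that encodes the signal peptide. The 36-base exon of Aplp2 (chr9:31156190-31156225, 12 codons) is exon 13 of ENSMUST00000079758.8, and its inclusion is known to prevent the attachment of a chondroitin sulfate chain to Aplp2. In the sequences the exon is in capitals and 12 bases of the neighbouring exons are in lower case on each side.
App exon 2: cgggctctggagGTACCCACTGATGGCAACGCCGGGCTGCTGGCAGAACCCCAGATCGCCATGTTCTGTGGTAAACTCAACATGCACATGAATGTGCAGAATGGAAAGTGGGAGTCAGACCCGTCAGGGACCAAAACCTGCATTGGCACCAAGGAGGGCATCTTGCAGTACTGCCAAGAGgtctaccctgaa
Aplp2 12-residue exon: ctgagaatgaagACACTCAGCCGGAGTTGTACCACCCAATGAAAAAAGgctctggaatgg

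App lies on chromosome 16 (84949685 to 85173766, minus strand, ENSMUSG00000022892.11). Its isoform 1 (ENSMUST00000005406.11) has 16 exons and 695 codons, lacks the Kunitz exon and the following exon 8, and held 2485 counts. Isoform 2, with 15 exons, differs in lacking exon 2, keeps 639 of the codons that M21 annotates and held 356 counts. Isoform 3, with 8 exons, joins exon 1 to exon 10 of isoform 1, skips 8 exons (1176 bases, a multiple of 3), keeps 303 codons and held 333 counts. The skips of isoforms 2 and 3 each use 1 junction that is not in M21, and 22.2% of all 33517 deposited models with introns had such a junction.

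Aplp2 lies on chromosome 9 (31149557 to 31211815, minus strand, ENSMUSG00000031996.17). Its isoform 1 has 18 exons with both the Kunitz exon and the 12-residue exon, 763 codons and 5784 counts. That chain of introns is not in M21, although each of its junctions is. Isoform 2 (ENSMUST00000079758.8, 707 codons, 278 counts) lacks the Kunitz exon, and isoform 3 (ENSMUST00000072634.14, 751 codons, 146 counts) lacks the 12-residue exon. Among listed isoforms none lacked both exons, a form that M21 annotates as ENSMUST00000217641.1 with 695 residues. Aplp1, on chromosome 7 (30434982 to 30445535, minus strand, ENSMUSG00000006651.8), had the 17-exon ENSMUST00000006828.8 of 654 codons as its only listed isoform.

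The level of App was highest in bipolar cells and lowest in rods. It was 81.4 CPM in bipolar cells (78.1 to 84.7), followed by Müller glia with 22.2 CPM (18.6 to 26.2), ganglion cells with 16.2 CPM (12.3 to 21.04), cones with 9.31 CPM (7.23 to 11.8), amacrine cells with 8.31 CPM (7.52 to 9.17) and rods with 2.72 CPM (2.31 to 3.19). Bipolar cells stood 3.67-fold above Müller glia, the next class, and 29.9-fold above rods. The intervals of Müller glia and ganglion cells overlapped, and so did those of cones and amacrine cells, so the order within these pairs was not resolved. These levels rested on 2361 counts in bipolar cells, 401 in amacrine cells, 151 in rods, 136 in Müller glia, 68 in cones and 57 in ganglion cells.

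Aplp1, whose product is known mainly from neurons, had another order. Its level was 264 CPM in cones (252 to 276), 139 CPM in bipolar cells (135 to 144), 121 CPM in amacrine cells (118 to 125), 87.2 CPM in ganglion cells (77.7 to 97.5), 22.7 CPM in rods (21.5 to 24.0) and 9.78 CPM in Müller glia (7.47 to 12.6). No neighbouring intervals overlapped. Cones were 26.9-fold above Müller glia, which had 60 counts, and 11.6-fold above rods, which had 1259. Relative to the median of the 5 neuron classes, Müller glia had 0.0805 of the Aplp1 level (0.0615 to 0.104), against 2.38 times the App level (2.00 to 2.82) and 2.74 times the Aplp2 level (2.40 to 3.12), where the intervals hold the median fixed.

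Aplp2, which is known from neural and other tissues, was again highest in bipolar cells. Its level was 159 CPM in bipolar cells (155 to 164), 37.0 CPM in Müller glia (32.4 to 42.2), 34.6 CPM in cones (30.5 to 39.2), 13.5 CPM in rods (12.5 to 14.5), 7.11 CPM in amacrine cells (6.38 to 7.90) and 6.27 CPM in ganglion cells (3.93 to 9.49). The bipolar level was 4.30-fold above that of Müller glia and 25.4-fold above that of ganglion cells, which had 22 counts. Müller glia and cones had overlapping intervals, as had amacrine and ganglion cells. A level is a share of all RNA counted in a class, so the number of cells behind it and the RNA per cell cannot be told apart. RNA of other classes was present in the columns. The 6 rod markers, at 5065 CPM in rods, summed to 217 CPM in cones, 201 CPM in Müller glia, 90.3 CPM in bipolar cells, 35.4 CPM in amacrine cells and 0 in ganglion cells. Lowering each count by the matching share of the rod level left the order of the 6 classes as it was for each of the 3 genes. App was lowest in rods, and Aplp1 and Aplp2 were also low there, so this step could change all 3 little. App went from 9.31 to 9.19 CPM in cones. In Müller glia Aplp1 went from 9.78 to 8.88 CPM and Aplp2 from 37.0 to 36.5 CPM. The order of classes could therefore hardly change. RNA of the other classes was not subtracted. The 6 bipolar markers, at 669 CPM in bipolar cells, summed to 79.1 CPM in rods, of which Otx2 had 43.4 CPM. They summed to 59.1 CPM in cones, 28.2 CPM in Müller glia, 5.64 CPM in amacrine cells and 1.14 CPM in ganglion cells. The part of bipolar RNA in the App and Aplp2 levels of those columns was not tested.

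**Figure D1:**
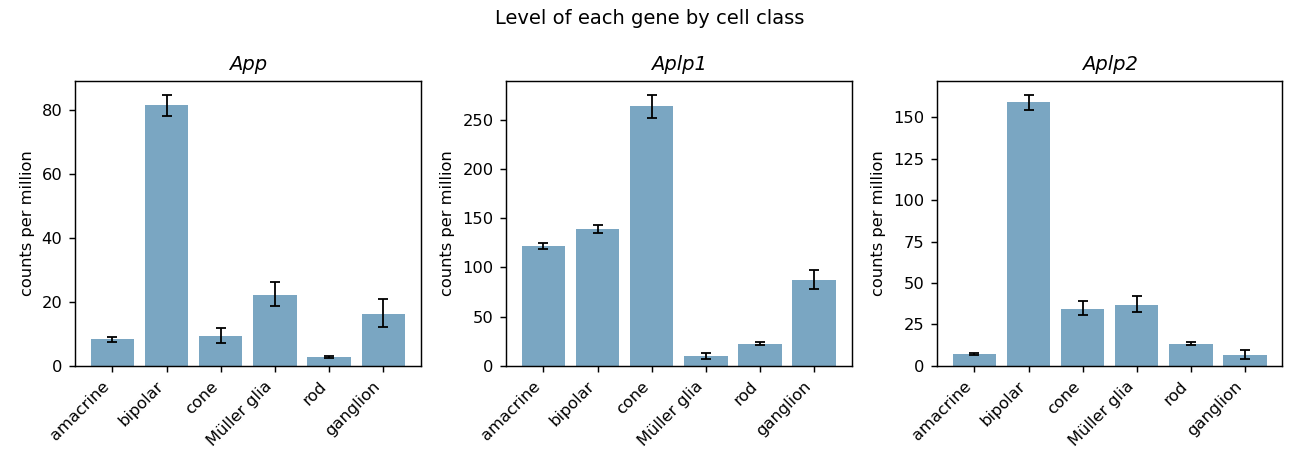
Level of App, Aplp1 and Aplp2 in CPM for the 6 cell classes, with bars for the level and error bars for the exact 95% Poisson interval of the count. App and Aplp2 peak in bipolar cells (81.4 and 159 CPM) and Aplp1 peaks in cones (264 CPM).

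Set against all genes, the family's differences were read by a rule of size: a gene was counted as higher or lower in a class when its CPM + 1 was at least 2-fold above or below the mean of the other 5 classes, over 9868 genes with at least 100 counts. In bipolar cells App and Aplp2 were higher, as were 8.63% of all genes, and none of the 3 was among the 21% of genes that were lower. In rods all 3 were lower (24.9% of all genes) and none was higher (16.8%). In cones Aplp1 was higher (5.6%) and App lower (27.2%), and in amacrine cells App and Aplp2 were lower (23.9%) with none higher (14.8%). Müller glia had Aplp1 among lower genes (27.7%) and none among higher ones (13.6%), and ganglion cells had Aplp2 among lower genes (42%) and none among higher ones (12.8%). With 3 genes these counts describe the family and give no comparison of it with other genes.

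No listed App isoform contained the Kunitz exon. Counts with it were 0 of 2361 in bipolar cells, 0 of 401 in amacrine cells, 0 of 151 in rods, 0 of 136 in Müller glia, 0 of 68 in cones and 0 of 57 in ganglion cells. Exon 8 (chr16:85040251-85040307, 57 bases), which follows the Kunitz exon in the App transcript of M21 with the most exons, was likewise in none of them. Exon 15 (chr16:84971408-84971461, 54 bases), whose skipping gives the forms known as L-APP, was in all 3 isoforms and in every count. M21 annotates the Kunitz exon in 5 of its 6 coding App transcripts. The lowest total of any listed isoform was 6 counts, so a zero here says only that no listed isoform has the exon, and no upper limit is given for these shares. The 136 App counts of the Müller glia column, the only glial class, were thus all on isoforms without it, in the column in which astrocyte markers were highest (Gfap at 60.5 CPM, Aldh1l1 at 22.3 CPM and S100b at 28.0 CPM).

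In Aplp2 nearly every count included the Kunitz exon in 4 classes, and fewer did in amacrine and ganglion cells. The share was 98.4% in cones (249 of 253 counts, 96.0 to 99.6%), 97.2% in bipolar cells (4488 of 4615, 96.7 to 97.7%), 96.9% in Müller glia (220 of 227, 93.7 to 98.8%) and 94.8% in rods (709 of 748, 92.9 to 96.3%). It was 72.3% in amacrine cells (248 of 343, 67.2 to 77.0%) and 72.7% in ganglion cells (16 of 22, 49.8 to 89.3%). The intervals of amacrine and ganglion cells both lay below those of the first 4 classes, although the 22 counts of ganglion cells made theirs wide. The part of bipolar RNA in the shares of the other columns, for this exon and those below, was not tested. Müller glia were 2.13 percentage points above the median of the 5 neuron classes, a difference within the counting error of the glial value (-1.04 to 3.97). Most Aplp2 counts of each neuron class carried the Kunitz exon, while no App count in the same columns did.

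The 12-residue exon of Aplp2 was left out most often in ganglion cells and Müller glia. Counts without it, which are those of the form that can carry chondroitin sulfate, were 36.4% in ganglion cells (8 of 22, 17.2 to 59.3%), 20.7% in Müller glia (47 of 227, 15.6 to 26.6%), 9.33% in amacrine cells (32 of 343, 6.47 to 12.9%), 4.28% in rods (32 of 748, 2.94 to 5.99%), 0.563% in bipolar cells (26 of 4615, 0.368 to 0.824%) and 0.395% in cones (1 of 253, 0.0100 to 2.18%). Müller glia lay above amacrine cells, rods, bipolar cells and cones without overlap of intervals. Inclusion in Müller glia, 79.3%, was 16.4 percentage points below the median of the neuron classes. The column's markers of microglia, pigment epithelium and vessels, given above, accompany this value, and their part in it was not tested.

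**Figure D2:**
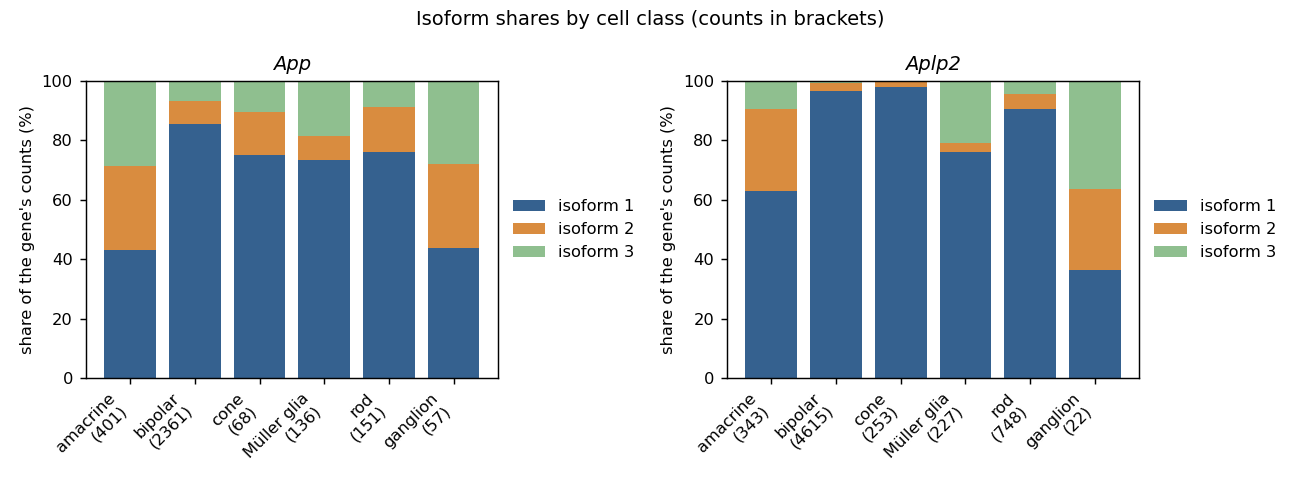
Share of the counts of App and of Aplp2 held by each listed isoform in the 6 classes, in percent, with the gene's counts in brackets. Isoform 1 of App is at 43.1% in amacrine and 43.9% in ganglion cells, and isoform 3 of Aplp2, without the 12-residue exon, reaches 20.7% in Müller glia and 36.4% in ganglion cells.

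App exon 2 varied between the classes. It was included in 85.6% of counts in bipolar cells (2021 of 2361, 84.1 to 87.0%), 76.2% in rods (115 of 151, 68.6 to 82.7%), 75.0% in cones (51 of 68, 63.0 to 84.7%) and 73.5% in Müller glia (100 of 136, 65.3 to 80.7%). It was included in 43.1% in amacrine cells (173 of 401, 38.2 to 48.2%) and 43.9% in ganglion cells (25 of 57, 30.7 to 57.6%). Amacrine and ganglion cells were 0.718 percentage points apart, and both intervals lay below those of the other 4 classes. These 2 columns also held the least bipolar marker RNA outside bipolar cells (5.64 and 1.14 CPM). Rods had 79.1 CPM of it, cones 59.1 CPM and Müller glia 28.2 CPM. The part of bipolar RNA in the exon 2 shares of those columns was not tested. The counts without exon 2 fell on isoforms 2 and 3 in similar parts in amacrine cells (113 and 115), bipolar cells (183 and 157) and ganglion cells (16 and 16), while Müller glia had 11 and 25, rods 23 and 13, and cones 10 and 7. With isoform 3 left out, inclusion was 60.5% in amacrine cells (173 of 286) and 91.7% in bipolar cells (2021 of 2204), a gap of 31.2 percentage points in place of 42.5.

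**Figure D3:**
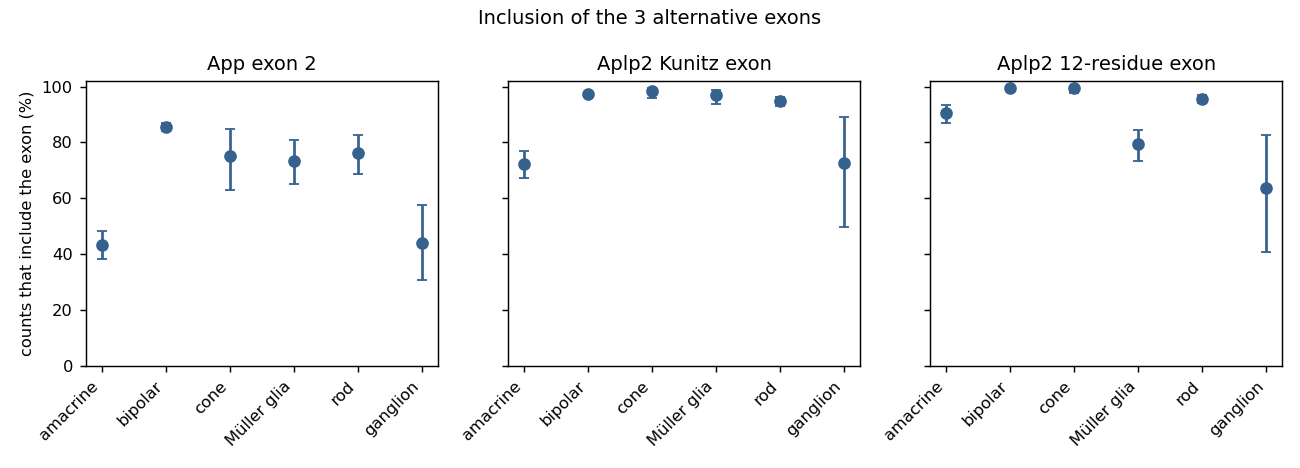
Share of counts that include App exon 2, the Aplp2 Kunitz exon and the Aplp2 12-residue exon in the 6 classes, in percent, with exact 95% binomial intervals. Amacrine and ganglion cells are lowest for App exon 2 (43.1% and 43.9%) and the Aplp2 Kunitz exon (72.3% and 72.7%), and ganglion cells and Müller glia are lowest for the 12-residue exon (63.6% and 79.3%).

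These gaps were read against all cassette exons of the deposited models, 14496 exons in 4862 genes, counting an exon as different between a pair of classes at 25 percentage points or more with at least 20 informative counts in each. App exon 2 was past this size in 8 of 15 pairs, all of amacrine or ganglion cells with another class. For amacrine cells these were the pairs with bipolar cells (13.9% of all exons compared were past it), cones (15.6%), Müller glia (16.8%) and rods (19.2%). For ganglion cells they were the pairs with bipolar cells (18.8%), cones (18%), Müller glia (19.3%) and rods (19.3%). The 12-residue exon was past it in 4 pairs, ganglion cells with bipolar cells, cones, rods and amacrine cells (13% of exons in the last pair), and the Aplp2 Kunitz exon in 2 pairs, cones with amacrine cells (26.1 percentage points) and cones with ganglion cells (25.7). All 4 pairs of the 12-residue exon rest on 1 ganglion cell value from 22 counts (63.6%, 40.7 to 82.8%). The Kunitz pair with ganglion cells rests on the same 22 counts. Amacrine with bipolar cells missed the size for the Kunitz exon at 24.9 points, and passed it at 25.3 points with rod RNA subtracted. In bipolar cells with cones (6.08%), Müller glia (8.74%) or rods (10.8%), cones with Müller glia (8.26%) or rods (4.37%), and Müller glia with rods (8.93%), none of the 3 exons was past it. The gap of 42.5 points in App exon 2 between amacrine and bipolar cells was reached by 5.38% of the 8018 exons compared in that pair.

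The listed isoforms differ in their 3′ ends along with their exons, so neither can be read alone. App isoform 1 ends 183 bases after the stop codon, 705 bases short of the annotated end of its transcript, while isoforms 2 and 3 end 881 and 893 bases after it. In Aplp2 isoform 1 ends 242 bases after the stop codon and isoforms 2 and 3 end 1314 bases after it. Neither short end had the poly(A) signal AATAAA or ATTAAA, read on the strand of the transcript, in its last 50 bases, and App isoforms 2 and 3 both had one, as did 54.2% of 11836 models that end inside an M21 last exon. The 20 bases after the short end held 7 A in App and 6 A in Aplp2, and 26.4% and 37.7% of those models had as many. App isoform 2, with a long end, also had 6 A.

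The share of long 3′ ends follows in part from the exons of the isoforms that carry them. In App they made up 56.9% of counts in amacrine cells, 56.1% in ganglion cells and 14.4% to 26.5% in the other 4 classes, and by construction they are the counts without exon 2. In Aplp2 they made up 63.6% in ganglion cells, 37.0% in amacrine cells (31.9 to 42.4%), 23.8% in Müller glia (18.4 to 29.9%), 9.49% in rods, 3.32% in bipolar cells and 1.98% in cones. Every count without the Kunitz exon is by construction among them (95 of 127 in amacrine cells). Among the Kunitz isoforms alone, where a long end goes with the absence of the 12-residue exon, long ends made up 50% in ganglion cells (8 of 16), 21.4% in Müller glia (47 of 220, 16.1 to 27.4%), 12.9% in amacrine cells (32 of 248, 9.0 to 17.7%) and 4.51% or less in the other 3 classes. Ganglion cells remained first, with an interval of 24.7 to 75.3% that overlapped that of Müller glia. Amacrine cells then stood below Müller glia, also with overlapping intervals.

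The mean length of the listed models, weighted by counts, combines the ends with the skipped exons. Against bipolar cells, the Aplp2 mean was 593 bases longer in ganglion cells, 316 bases longer in amacrine cells and 212 bases longer in Müller glia. Among genes with 2 or more models, 3.16% of 2907, 11.4% of 5548 and 6.80% of 3821 differed by at least as much in either direction in these 3 classes. The App mean was 7.87 bases longer in ganglion cells, 5.62 bases longer in amacrine cells and differed by -52.9 bases in Müller glia, sizes reached by 60.9%, 72.4% and 21.6% of genes. App isoforms 2 and 3, both with the long end, have 2947 and 1951 bases, on either side of the 2417 of isoform 1. The App mean therefore hardly registers the differences in isoform shares given above.

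Within the long-ended isoforms of Aplp2, which share their last exon, the classes stood in another order. Here the Kunitz form and the form with the 12-residue exon are the only 2 listed. Leaving out isoform 1, which has both exons, can only lower the Kunitz share. That isoform held 96.7% of the Aplp2 counts of bipolar cells. Each share given next is also the share without the 12-residue exon, so the 2 exons cannot be told apart here. The Kunitz form made up 87.0% in Müller glia (47 of 54 counts, 75.1 to 94.6%), 57.1% in ganglion cells (8 of 14, 28.9 to 82.3%), 45.1% in rods (32 of 71, 33.2 to 57.3%), 25.2% in amacrine cells (32 of 127, 17.9 to 33.7%), 20.0% in cones (1 of 5, 0.505 to 71.6%) and 17.0% in bipolar cells (26 of 153, 11.4 to 23.9%). Müller glia were 61.8 percentage points above the median of the neuron classes, with an interval above those of rods, amacrine cells, cones and bipolar cells. Amacrine cells, 24.9 points below bipolar cells over all isoforms, were 8.20 points above them here, with overlapping intervals. Within the long ends amacrine cells still lay below Müller glia without overlap of intervals, and were at 25.2% against 45.1% in rods, but they were no longer below bipolar cells or cones.

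**Figure D4:**
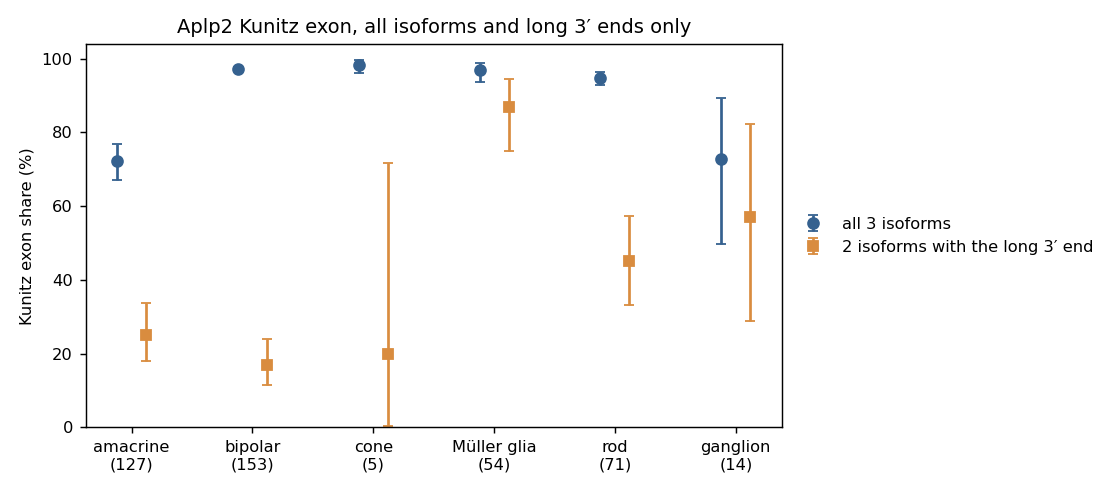
Share of Aplp2 counts with the Kunitz exon over all 3 isoforms (circles) and over the 2 isoforms with the long 3′ end (squares) in each class, in percent, with exact 95% binomial intervals and, in brackets, the counts behind the squares. Müller glia stay high in both (96.9% and 87.0%), whereas bipolar cells go from 97.2% to 17.0%.

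A single-exon isoform listed as a locus of its own lies in the first intron of the 3 Aplp2 models, on the same strand (chr9:31210645-31211296). It had 160 counts in bipolar cells, 93 in rods, 2 in cones, 1 in Müller glia and 0 in amacrine and ganglion cells, and was not counted as Aplp2.

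The genes whose profile over the 6 classes was most like that of each member, by Pearson correlation of log2(CPM + 1) among 5225 other genes with at least 1000 counts, were Psma6 (r = 0.99), Atxn10 (0.96) and Rps14 (0.96) for App, Chchd1 (0.96), Acyp1 (0.95) and Mrps18c (0.94) for Aplp1, and Cbwd1 (0.98), Pigk (0.98) and Txnrd2 (0.98) for Aplp2. Aplp2 and App were correlated at 0.71, App and Aplp1 at 0.18, and Aplp1 and Aplp2 at 0.09. These values describe 6 points that share libraries and column totals. Correlation ignores the size of a difference: Chchd1 ranged only from 422 CPM in Müller glia to 534 CPM in cones.

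Proteins that process, bind or clear the family were read from 7 lists with 51 genes, of which 34 had at least 100 counts and 13 had fewer. The other 4 (Bace1, Itm2c, Mme and Wfikkn1) had no isoform listed under their gene. Of the 34, 31 were past 2-fold in at least 1 class, as were 80.6% of all genes. In Müller glia 11 (32.4%) were higher and 7 (20.6%) lower, where 13.6% and 27.7% of all genes were, and the median log2 ratio was 0.27 against -0.43 for all genes. In ganglion cells 2 (5.88%) were higher and 19 (55.9%) lower, against 12.8% and 42% of all genes, with a median of -1.26 against -0.74. In bipolar cells 8 (23.5%) were higher, against 8.63% of all genes, while the 7 lower ones (20.6%) were at the share of all genes (21%). Rods had 6 higher (17.6%, all genes 16.8%) and 12 lower (35.3%, all genes 24.9%). Cones had 3 higher (8.82%, all genes 5.6%) and 13 lower (38.2%, all genes 27.2%), and amacrine cells had 1 higher (2.94%, all genes 14.8%) and 13 lower (38.2%, all genes 23.9%).

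The secretases come first. All 3 alpha-secretase candidates, metalloproteases that cut App within the amyloid-beta stretch, were low in each class: Adam9 was higher in bipolar cells (3.55 CPM), Adam17 in rods (3.17 CPM), and Adam10 was past 2-fold in no class. Bace2, the homologue of the beta-secretase Bace1, had 64 counts, below the minimum, with 9.13 CPM in Müller glia. Of the 7 gamma-secretase genes, Psen2, a catalytic subunit, was higher in Müller glia (58.7 CPM, against 25.1 CPM in bipolar cells), and so was the scaffold gene Aph1c (27.9 CPM, against 5.58 CPM in bipolar cells). In ganglion cells 4 of the 7 were lower, where 42% of all genes were, among them Aph1a with 1.71 CPM and the nicastrin gene Ncstn with 0.285 CPM, which is 1 count. Aph1b was lower in amacrine cells (1.62 CPM).

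Of 13 adaptors that bind the App tail, 9 were above the minimum. Apbb1, which encodes the Fe65 adaptor, was higher in cones (256 CPM) and lower in Müller glia (21.4 CPM), the classes in which Aplp1 was highest and lowest. Its relative Apbb2 was higher in ganglion cells (206 CPM) and lower in the other 5 (5.41 to 11.4 CPM). Dab1, an adaptor of reelin signalling, was higher in amacrine cells (22.6 CPM), Apba3 in rods (30.6 CPM), Appbp2 in Müller glia (20.9 CPM) and Mapk8ip2, a kinase scaffold, in bipolar cells (7.55 CPM).

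Among 14 sorting receptors and surface partners 8 were above the minimum, with 4 higher in bipolar cells (8.63% of all genes) and 4 in Müller glia (13.6%). In cones 6 of the 8 were lower (27.2% of all genes), and in rods 5 (24.9%). Sorl1, a receptor that sorts App away from the secretases, was higher in both, at 11.0 CPM in bipolar cells and 8.97 CPM in Müller glia, and at most 3.70 CPM elsewhere. Cntn4, a cell adhesion protein that binds App, was higher in bipolar cells (63.8 CPM). Itm2b, which encodes the BRI2 protein that binds App, and its relative Itm2a were higher in Müller glia (4037 and 281 CPM), as was Lrp10 (5.54 CPM), and Lrp1b was higher in ganglion cells (73.8 CPM).

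Of 4 genes for clearance and extracellular chaperones of amyloid-beta above the minimum, 3 were higher in Müller glia (13.6% of all genes). Apoe reached 39298 CPM there against at most 1113 CPM elsewhere, Clu 6980 CPM against at most 384 CPM, and Cst3 11998 CPM against 11472 CPM in rods. In rods 2 of the 4 were higher (16.8% of all genes), Cst3 and Ide (19.4 CPM). Ide, the insulin-degrading enzyme, was also higher in bipolar cells (20.8 CPM). Of 3 other Kunitz-type inhibitor genes above the minimum, Spint2 was higher in rods (333 CPM) and cones (322 CPM), Spint1 in cones (3.97 CPM) and Tfpi in Müller glia (15.2 CPM). Microglia, whose marker RNA peaked in the same column (1699 CPM), are also known to express Apoe. Pigment epithelium markers summed to 8878 CPM there, of which Ttr had 8443 CPM. The part of these and the other cells without a column in these values was not tested.

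**Figure D5:**
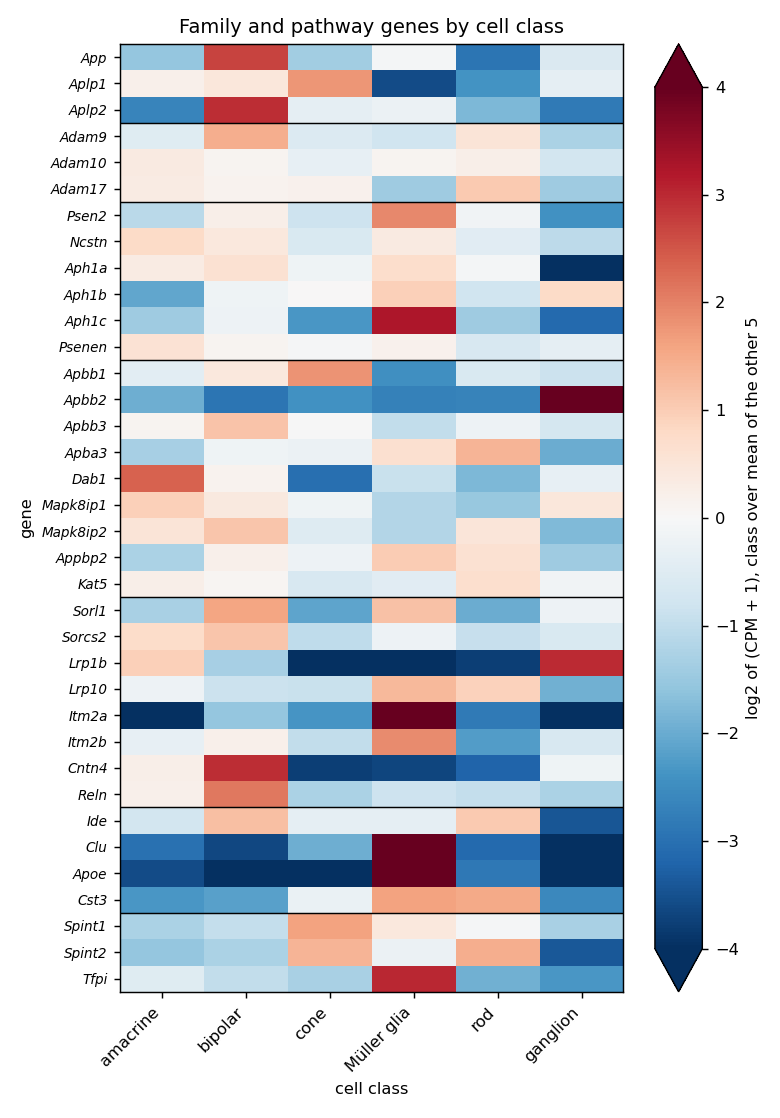
Log2 ratio of CPM + 1 in each class (columns) to the mean of the other 5 classes for the 3 family members and 33 of the 34 pathway genes with at least 100 counts (rows, lists separated by lines). Red is higher and blue lower, and the colour scale ends at 4 in either direction. App and Aplp2 are red in the bipolar column, and Apoe and Clu are red only in the Müller glia column.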

How the data were processed

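Per the labels, cDNA of 4 single-cell libraries made with 10x Genomics chemistry was sequenced on a nanopore instrument. The series' design text names FACS for the enrichment, where the protocols give magnetic separation. The authors deposited whole-number counts per isoform in 6 class columns that pool libraries, and transcript models that name FLAIR as their source. The aligner, the counting, the cell and doublet calls and any collapse of molecular identifiers are not given in the sources used here, so 1 molecule may give several counts. If so, the intervals above are too narrow, also those that do not overlap. The build is mm10 per the submitters' processing notes, and 94.4% of distinct junctions were in GENCODE M21 (GRCm38). Sequences were read from M21 transcripts.

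Counts were scaled to 1000000 per column (CPM). An exon was included where a model had it as an internal exon and skipped where an intron spanned it. Shares carry exact Clopper-Pearson intervals and levels exact Poisson intervals. Alternative column scalings, coded from their formulas over gene sums, were the median of ratios and TMM (a trimmed mean of log ratios). The rules were tested on simulated data. Python 3.11.15 and scipy 1.17.1 were used.

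The members and lists were chosen with earlier results of these data known. Named genes were the members, up to 6 genes past 2-fold per list by counts, and the 3 genes most like each member. The 4 list members without a listed isoform, Adam10, Bace2 and the markers Gfap, Aldh1l1, S100b, Ttr and Best1 were named after the data were seen. The values of 1 list gene are not reported here, although it is in the list counts.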

Additional observations from a re-analysis of the deposited data

How the results depend on the processing

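Of 47 alternatives to 12 results, 38 stayed within the counting interval of the value (for counts of genes or exons, within 1.5-fold), 8 moved and 1 reversed. In 26 of the 38 the value was unchanged. For 18 of these it could not change, since all 7 isoforms have a model, span the exons and have more than 10 counts, so they say nothing about stability. The other 8 were App exon shares of 0 or 100% with Ensembl transcripts only or rod RNA subtracted, the Aplp1 level with Ensembl transcripts only, and the 31 pathway genes, a number that TMM left as it was. Those App shares and the Aplp1 level could not change either. All 3 App isoforms are alike in these exons, and the only Aplp1 isoform is an Ensembl transcript. Of the 8, only the number of pathway genes under TMM was free to change. With Ensembl transcripts only, which drops the isoform with most Aplp2 counts, the difference of Müller glia from the neuron median was 61.8 percentage points for the Aplp2 Kunitz exon and -61.8 for the 12-residue exon, the Aplp2 level ratio was 3.34, and amacrine minus bipolar cells for the Kunitz exon reversed to 8.20. Scaling by the median of ratios gave level ratios of 0.108 for Aplp1 and 3.54 for Aplp2. These moves follow from the column factors, which act alike on all genes of a column. That scaling shifted all genes by up to 0.24 (log2) in Müller glia and the trimmed mean by up to 0.15 in cones, and neither changed the order of classes for any of the 3 genes. Without App isoform 3 the amacrine minus bipolar difference in exon 2 was -31.2. With a minimum of 1000 counts, 16 of 18 pathway genes were past 2-fold against 31 of 34, and with 100 informative counts 1092 of 5799 cassette exons differed in some pair of classes against 3521 of 10563. The comparisons of amacrine with bipolar cells and the minimum of 100 were added after seeing the data. Leaving out a library could not be run because the columns pool them. No paired analysis was possible because each class is 1 column without replicate numbers. Depth limits the ganglion cell shares most, with 22 Aplp2 and 57 App counts.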
